A study of Mus musculus with 4 samples.

Results

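Proteasome genes were examined in mouse bone marrow-derived macrophages that had received a mimic of the microRNA miR-204-3p or a control mimic. The members were the protein-coding genes of the count table whose symbol begins with Psma, Psmb, Psmc, Psmd, Psme, Psmf or Psmg followed by a digit. They numbered 50 of 54532 genes in the table, and all 50 passed the low-count filter that left 13186 genes for testing. The 4 pseudogenes with such names were not members. Psmc3ip matched the name rule but encodes a meiotic recombination factor and not a proteasome subunit, so it was counted as a member and placed in no class. The study compared macrophages transfected for 24 h with miR-204-3p mimic (2 libraries) with macrophages given a negative-control mimic for the same 24 h (2 libraries). In both groups mouse bone marrow cells had first been differentiated for 7 days in medium with 30% L929 cell supernatant, a source of macrophage colony-stimulating factor. No label gives strain, sex or age. Whether libraries of 1 group stem from different animals or cultures is not stated either, so a p-value here reflects spread among libraries that may be technical. In such bulk RNA, fewer cells of a type and less RNA per cell cannot be told apart.

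The proteasome is the protease that degrades proteins tagged with ubiquitin. Its 20S core is a barrel of alpha and beta rings, and the beta subunits Psmb5, Psmb6 and Psmb7 carry the catalytic sites. Interferon exchanges them for Psmb8, Psmb9 and Psmb10, which form the immunoproteasome and favour peptides that MHC class I molecules can present. The 19S regulatory particle binds and unfolds ubiquitinated substrates with a ring of ATPases, while alternative caps such as PA28 open the core without ATP. In macrophages, both the constitutive and the induced forms are present, and interferon raises the induced one.

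The mature miR-204-3p sequence and its matches in the members' 3′ untranslated regions are shown because the mimic is named for this microRNA. The microRNA lies at chr19:22750649-22750669 on the plus strand of GRCm38.p6 in RefSeq, and capitals mark its seed, bases 2 to 8. In the lines for target genes, taken from GENCODE vM21 transcripts on GRCm38 in the sense of the mRNA, capitals mark the match to the seed. The Psmd8, Psmd5 and Psmd11 lines are shown because these members passed the test, and the Psmd13 line because it holds the longer match that ends in A.
mmu-miR-204-3p: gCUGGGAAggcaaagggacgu
Psmd8, chr7:29174452-29174458, minus strand: ttgcgaagcgtTTCCCAGttgtcattgct
Psmd5, chr2:34852493-34852499, minus strand: ggacgtctgtcTTCCCAGgcacagcctca
Psmd11, chr11:80472716-80472722, plus strand: ctcatgtctccTTCCCAGtgtctttctct
Psmd13, chr7:140898114-140898121, plus strand: gcccttagcttTTCCCAGAaaagaactaga

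The letters TTCCCAG occurred in the longest annotated 3′ untranslated region of 7 of 50 members (14.0%), against 22.5% of the 11276 tested protein-coding genes that have one. The longer form TTCCCAGA occurred in Psmb11 and Psmd13, which is 4.0% of members against 6.23% of those genes. Of the 7 members with a match, Psmd8 was lower with the miR-204-3p mimic, Psmd5 and Psmd11 were higher, and Psma3, Psmb11, Psmd9 and Psmd13 did not pass the test. A match is a description of letters and not evidence that the microRNA binds there.

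Levels are given as CPM, counts divided by the library's total count times 1e6. TMM factors (trimmed mean of M-values) were applied to them, which correct library size for differences in RNA composition. Log2 fold changes are miR-204-3p mimic over control mimic, with the standard error after ±. Rose and fell mark members with an adjusted p below 0.05 in edgeR's quasi-likelihood test, with Benjamini-Hochberg adjustment over all 13186 genes. Total counts were 16837826 and 16295262 in miR-204-3p mimic libraries and 16446212 and 15899235 in control mimic libraries. The proteasome genes held 0.766% and 0.786% of all counts in miR-204-3p mimic libraries, against 0.592% and 0.626% in control mimic libraries. After TMM scaling their summed level was 6713 and 6994 CPM in miR-204-3p mimic libraries and 6751 and 7078 CPM in control mimic libraries, so the groups overlapped.

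Within that similar total, individual proteasome genes moved in both directions. Of the 50 members 20 passed the test, 11 higher and 9 lower, and 30 did not. The background was wide: 60.8% of all tested genes passed, 31.1% higher and 29.7% lower, so the members' 40.0% is no excess. At least 2-fold differences past the test were found for 4 members, Psmc2, Psmc5 and Psmg2 higher and Psme1 lower, where 31.6% of all tested genes met that rule. The 2 groups did not overlap for 36 members, 21 higher and 15 lower, while 80.7% of all tested genes were apart in this way. The members' median log2 fold change was 0.08 and that of all tested genes 0.04, and the medians of the absolute log2 fold changes were 0.28 and 0.65.

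All directions are relative to the TMM scaling. Under scaling by library size alone, the median over all tested genes became 0.40 (log2), a shift of 0.36. With that scaling 30 members were higher and 4 lower, where 46.6% of all tested genes were higher and 19.1% lower. Across all 10 alternative fits 10 members kept their call. The 7 that stayed higher were Psmc2, Psmc4, Psmc5, Psmc6, Psmd5, Psme3 and Psmg2, and the 3 that stayed lower were Psma7, Psmb8 and Psme1. Longer genes tended to have higher fold changes in these libraries, with a Spearman rho across genes of 0.21 over 13186 genes and 0.10 over the 50 members. Genes are not independent replicates, and the members' median length was 2768 bases against 3924 bases for all tested genes. With offsets for gene length 17 members were higher and 8 lower, and the members' rho with length became -0.29.

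**Figure D1:**
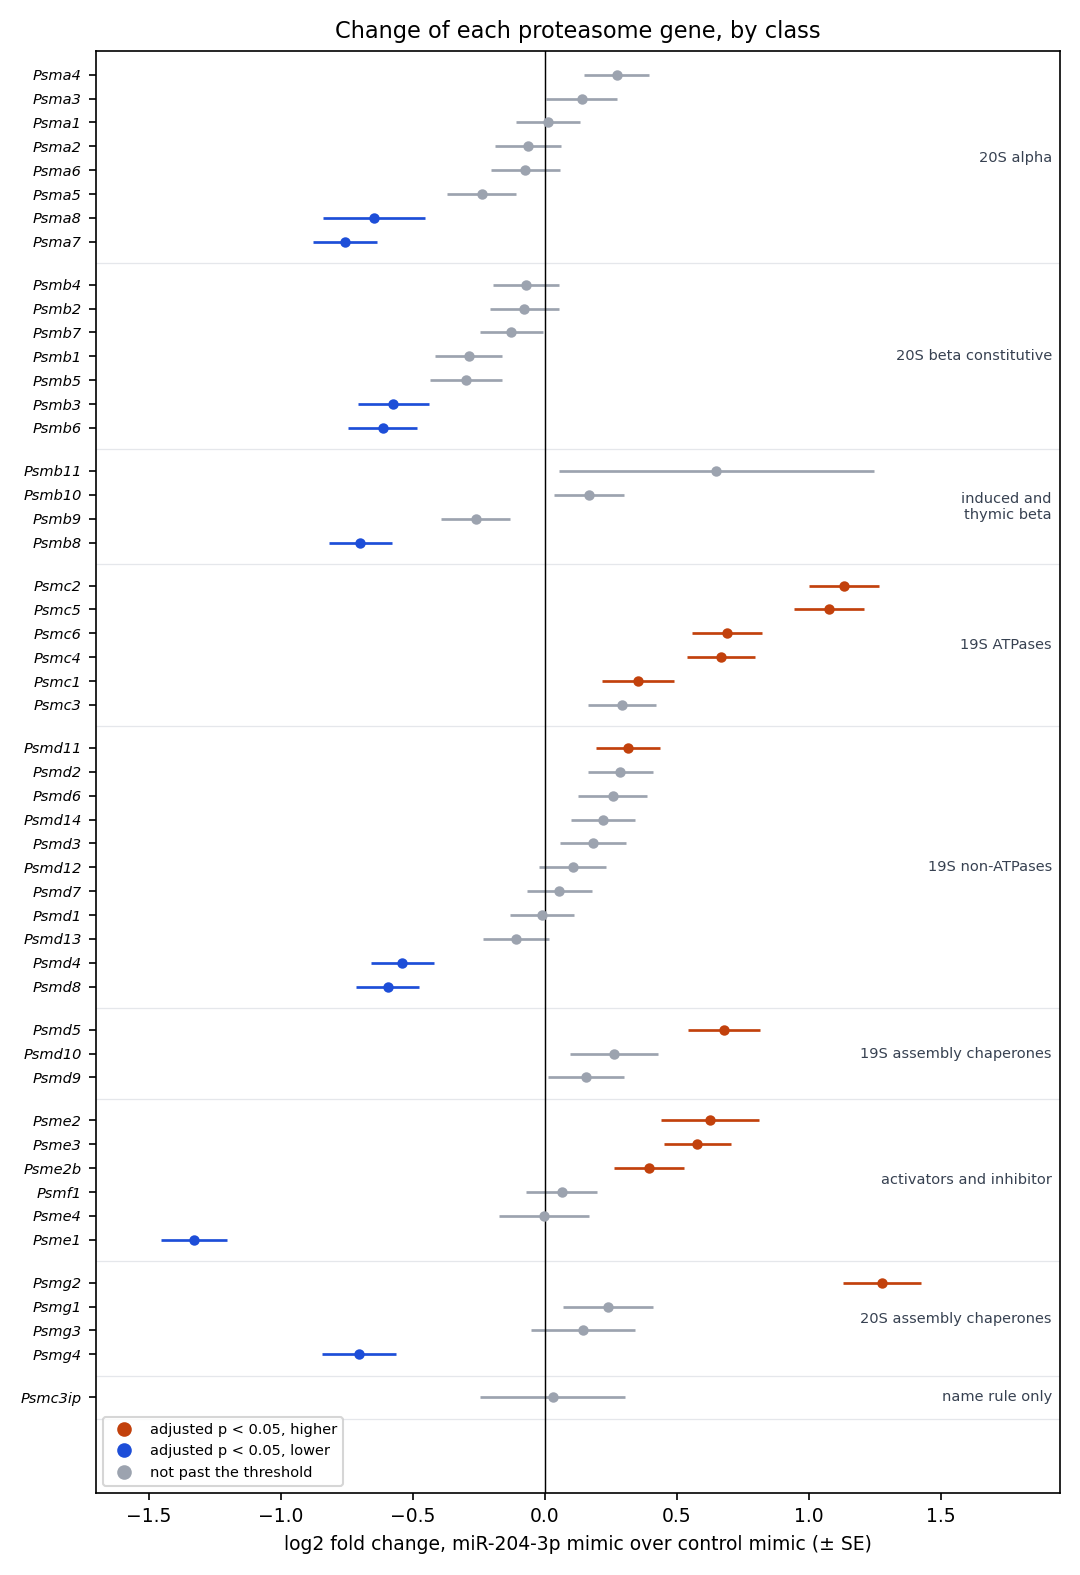
Each row is a proteasome gene and the x axis is its log2 fold change, miR-204-3p mimic over control mimic, with bars of 1 standard error (2 libraries per group). Orange marks the 11 members past the test that were higher, blue the 9 that were lower and grey the 30 not past it; the 19S ATPases all lie right of 0, from 0.29 to 1.13, and Psme1 lies lowest at -1.33.

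**Figure D2:**
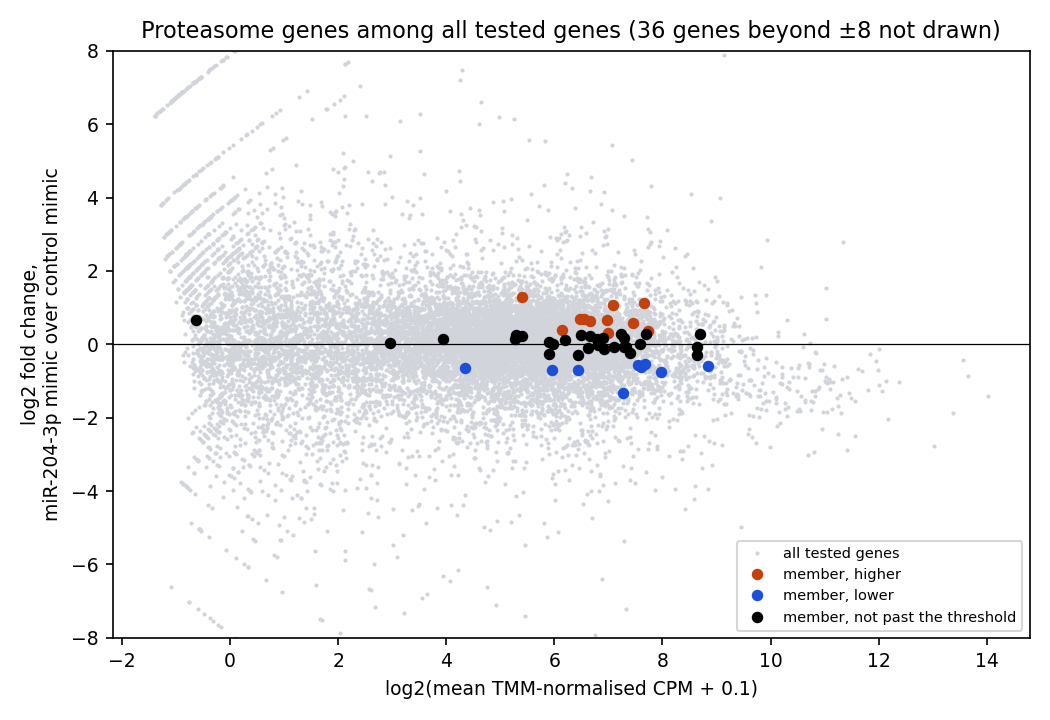
Each point is a tested gene, with log2 of the mean TMM-scaled CPM over the 4 libraries plus 0.1 on the x axis and the log2 fold change, miR-204-3p mimic over control mimic, on the y axis; grey points are other genes and coloured points the members. The members lie between -1.33 and 1.28, and 36 other genes lie outside the axis limits of -8 and 8 and are not drawn.

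No gene of the 20S core passed as higher with the miR-204-3p mimic under TMM scaling alone. With gene-length offsets 2 core genes were higher and 5 lower, and with library size alone 6 were higher and 2 lower. Under TMM scaling alone 5 of the core's 19 alpha and beta genes fell (26.3%), none rose and 14 did not pass. Their median log2 fold change was -0.13. Of all tested genes 29.7% were lower and 31.1% higher, so the 5 lower genes are no excess. The 8 alpha genes, whose products form the outer rings that gate the pore, had 2 lower (25.0%) and 6 not past. Psma7 had 188 and 184 CPM in miR-204-3p mimic libraries, against 305 and 324 CPM in control mimic libraries. Both miR-204-3p values lay below both control values. Psma7 fell by 0.76 ± 0.12 on the log2 scale (edgeR adjusted p = 9.9e-05). Psma4 stood at the other end of the alpha genes, with 238 and 217 CPM in miR-204-3p mimic libraries and 186 and 191 CPM in control mimic libraries. The groups did not overlap, and its log2 fold change of 0.27 ± 0.12 did not pass (edgeR adjusted p = 0.069). Psma4 passed as higher with gene-length offsets (0.39, adjusted p = 0.013) and with library size alone (0.64, adjusted p = 0.00047). Psma5, at -0.24, passed as lower without miR-204-3p library 2 (-0.37, adjusted p = 0.039), while its value was 0.10 with gene-length offsets and 0.12 with library size alone. The Psma5 value is also uncertain, since 33.6% of its 50-base stretches also occur in Gm8394, and others in further genes. Psma8, the testis form that replaces Psma7 in germ cells, was scarce. It had 16.0 and 15.4 CPM in miR-204-3p mimic libraries and 20.4 and 28.9 CPM in control mimic libraries, and fell by 0.65 ± 0.19 on the log2 scale (edgeR adjusted p = 0.0098). That call was lost without control library 2 (-0.38, adjusted p = 0.16), with gene-length offsets (-0.42, adjusted p = 0.057) and with library size alone (-0.28, adjusted p = 0.22).

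Among the 7 constitutive beta genes 2 fell (28.6%, against 29.7% of all tested genes) and 5 did not pass. All 7 log2 fold changes were negative, from -0.61 to -0.07, with a median of -0.29 that became 0.07 with library size alone. Psmb6, the caspase-like catalytic subunit, had 164 and 144 CPM in miR-204-3p mimic libraries, against 219 and 252 CPM in control mimic libraries. The groups were apart and Psmb6 fell by 0.61 ± 0.13 on the log2 scale (edgeR adjusted p = 0.0010). Psmb3, a beta subunit without a catalytic site, fell by 0.57 ± 0.13 on the log2 scale, with 156 and 145 CPM in miR-204-3p mimic libraries and 201 and 247 CPM in control mimic libraries (edgeR adjusted p = 0.0020). With library size alone neither call held, at -0.25 for Psmb6 (adjusted p = 0.11) and -0.21 for Psmb3 (adjusted p = 0.18). Psmb4, also without a catalytic site, was nearest to 0 of the beta genes, with 368 and 413 CPM in miR-204-3p mimic libraries and 399 and 420 CPM in control mimic libraries. Those groups overlapped, and the log2 fold change was -0.07 ± 0.12 (edgeR adjusted p = 0.64) and 0.29 with library size alone. Psmb1 passed as lower when miR-204-3p library 2 was left out (-0.42, adjusted p = 0.011).

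The other catalytic subunits of the constitutive core did not pass. Psmb5, the chymotrypsin-like subunit, had 85.2 and 70.5 CPM in miR-204-3p mimic libraries and 89.2 and 102 CPM in control mimic libraries, with a log2 fold change of -0.30 ± 0.14 (edgeR adjusted p = 0.069). Psmb7, the trypsin-like subunit, had 116 and 115 CPM in miR-204-3p mimic libraries and 126.0 and 126.1 CPM in control mimic libraries, with a log2 fold change of -0.13 ± 0.12 (edgeR adjusted p = 0.38). Both were apart between groups by small margins. Psmb5 passed as lower without control library 1 (-0.41, adjusted p = 0.042) and without miR-204-3p library 1 (-0.45, adjusted p = 0.011). Its direction turned with gene-length offsets (0.21, adjusted p = 0.17) and with library size alone (0.07, adjusted p = 0.69). The Psmb5 value is uncertain, since 54.1% of its 50-base stretches also occur in transcripts of other genes, 46.8% in Gm3375. Psmb7 exons share 11.8% of their bases with Nek6 on the opposite strand, whose counts were 685 and 687 in miR-204-3p mimic libraries and 1749 and 1924 in control mimic libraries. The sources used here do not say that counting used strand.

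The immunoproteasome genes did not move as a block. Psmb8 fell, and Psmb9 and Psmb10 did not pass the test. With the thymic gene Psmb11 counted, 1 of 4 passed (25.0%), against 60.8% of all tested genes. Psmb8 (ENSMUSG00000024338, mm10, chr17:34197721-34201454, plus strand) encodes the induced counterpart of Psmb5. It had 66.5 and 66.1 CPM in miR-204-3p mimic libraries, against 107 and 109 CPM in control mimic libraries. The libraries of each group were close to each other and the groups far apart, and Psmb8 fell by 0.70 ± 0.12 on the log2 scale (edgeR adjusted p = 0.00017). Under all 10 alternatives this call held.

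Psmb9 (ENSMUSG00000096727, mm10, chr17:34181988-34187764, minus strand), the induced counterpart of Psmb6, had 55.8 and 52.2 CPM in miR-204-3p mimic libraries and 63.7 and 65.8 CPM in control mimic libraries. Its groups did not overlap, while the log2 fold change of -0.26 ± 0.13 did not pass (edgeR adjusted p = 0.097) and was 0.10 with library size alone. Psmb10 (ENSMUSG00000031897, mm10, chr8:105935735-105938444, minus strand), the induced counterpart of Psmb7, had 122 and 130.2 CPM in miR-204-3p mimic libraries and 102 and 123 CPM in control mimic libraries. One control value exceeded the lower miR-204-3p value, and the log2 fold change was 0.17 ± 0.13 (edgeR adjusted p = 0.29). Psmb10 passed as higher with library size alone (0.53, adjusted p = 0.0030) and with gene-length offsets (0.39, adjusted p = 0.016). Psmb11, the beta subunit of thymic epithelium, had only 14 and 11 counts in miR-204-3p mimic libraries and 5 and 7 counts in control mimic libraries (edgeR adjusted p = 0.36).

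**Figure D3:**
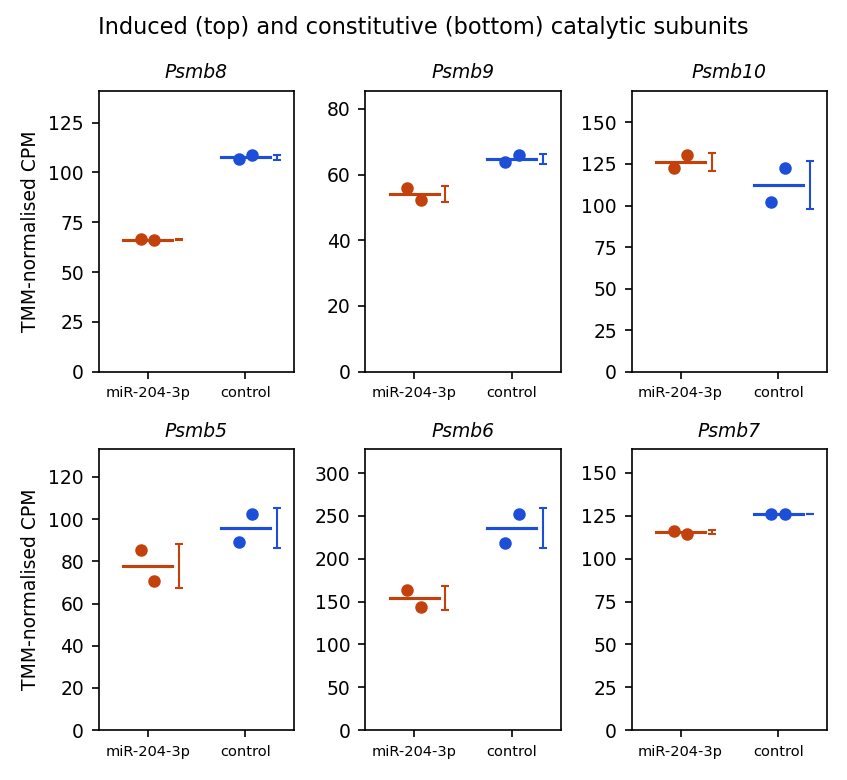
Levels in TMM-scaled CPM (y axes, from 0) of the induced catalytic subunits (top row) and their constitutive counterparts (bottom row) in each library, miR-204-3p mimic left of control mimic; points are libraries, horizontal lines means and error bars 1 SD (n = 2). Psmb8 and Psmb6 stand apart between the groups and passed the test, and Psmb10 overlaps.

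The share of each induced subunit in its pair was taken per gene length, which does not depend on the scaling of libraries. Psmb8 made up 20.4% and 23.5% of the Psmb8 and Psmb5 total in miR-204-3p mimic libraries, against 28.2% and 25.8% in control mimic libraries. Psmb9 made up 14.8% and 15.6% of its pair with Psmb6 in miR-204-3p mimic libraries, against 13.0% and 11.8% in control mimic libraries. Psmb10 made up 67.9% and 69.5% of its pair with Psmb7 in miR-204-3p mimic libraries, against 61.9% and 66.1% in control mimic libraries. The Psmb8 share was thus lower and the Psmb9 and Psmb10 shares higher in both miR-204-3p libraries than in both control libraries. The exact 95% binomial intervals of the Psmb8 share were 19.2% to 21.6% and 22.2% to 25.0% in miR-204-3p mimic libraries, and 26.7% to 29.8% and 24.4% to 27.2% in control mimic libraries. These intervals cover counting error only, and those of library 2 of each group overlap. The shares were not tested, because 2 libraries against 2 cannot give an exact two-sided p below 0.333. Summed counts of the 3 induced subunits per count of the 14 constitutive alpha and beta genes (Psma1 to Psma7 and Psmb1 to Psmb7) were 0.0981 and 0.0942 in miR-204-3p mimic libraries and 0.0941 and 0.0972 in control mimic libraries, so this ratio overlapped.

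Psmb9 shares its promoter region with Tap1, a peptide transporter subunit of MHC class I loading that is transcribed in the opposite direction. Their RefSeq starts on GRCm38.p6 lie 226 bases apart. Tap1 had 274 and 303 CPM in miR-204-3p mimic libraries, against 102 and 77.5 CPM in control mimic libraries. It rose by 1.68 ± 0.15 on the log2 scale (edgeR adjusted p = 2.8e-07), while Psmb9 beside it did not pass. Counts of Tap1 per count of Psmb9 were 4.91 and 5.80 in miR-204-3p mimic libraries and 1.60 and 1.18 in control mimic libraries, a ratio that the scaling of libraries does not touch and that was not tested. The exons of the 2 genes overlap on opposite strands over 212 bases, 5.79% of the Psmb9 exon bases. The windows run from 250 bases before to 50 after each gene's start, on the gene's strand, and show the promoter shared with Tap1 and that of Psmb8. Capitals mark a CCAAT box on the opposite strand in Psmb9 and a STAT site core, TTCNNNGAA, in Psmb8.
Psmb9, chr17:34187281-34187580, minus strand: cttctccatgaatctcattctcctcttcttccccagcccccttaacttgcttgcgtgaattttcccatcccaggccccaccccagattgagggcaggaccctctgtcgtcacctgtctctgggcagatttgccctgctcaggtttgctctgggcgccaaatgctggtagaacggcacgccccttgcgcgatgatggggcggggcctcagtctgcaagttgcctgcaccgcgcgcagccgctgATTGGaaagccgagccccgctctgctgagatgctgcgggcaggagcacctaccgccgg
Psmb8, chr17:34197945-34198244, plus strand: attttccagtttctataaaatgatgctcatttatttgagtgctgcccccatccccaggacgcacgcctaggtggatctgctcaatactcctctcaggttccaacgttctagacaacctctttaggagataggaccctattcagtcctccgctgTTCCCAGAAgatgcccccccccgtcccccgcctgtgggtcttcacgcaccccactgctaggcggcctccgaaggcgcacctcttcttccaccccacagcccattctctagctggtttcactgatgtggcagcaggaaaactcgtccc

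Among the classes, the 19S ATPases had the highest share past the test, 5 of 6 genes, where 60.8% of all tested genes passed. These 6 genes encode the ring that unfolds substrates and feeds them into the core. The 5 that passed all rose, none fell, and all 6 were apart between groups, their median log2 fold change being 0.68. All 6 passed as higher with library size alone and with gene-length offsets. Psmc2 (ENSMUSG00000028932, mm10, chr5:21785283-21803787, plus strand) had 254 and 303 CPM in miR-204-3p mimic libraries, against 124 and 129.9 CPM in control mimic libraries. Both miR-204-3p values were about double the control values, and Psmc2 rose by 1.13 ± 0.13 on the log2 scale, or 2.19-fold (edgeR adjusted p = 4.5e-06). Psmc5 (ENSMUSG00000020708, mm10, chr11:106256154-106263120, plus strand) had 180.4 and 185 CPM in miR-204-3p mimic libraries, against 79.0 and 94.6 CPM in control mimic libraries, and rose by 1.08 ± 0.13 on the log2 scale (edgeR adjusted p = 7.5e-06).

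Psmc6 and Psmc4 followed, with log2 fold changes of 0.69 ± 0.13 and 0.67 ± 0.13 (edgeR adjusted p = 0.00048 and 0.00045). Psmc6 had 128 and 104 CPM in miR-204-3p mimic libraries, against 71.4 and 72.5 CPM in control mimic libraries. Psmc4 had 154.0 and 153.8 CPM in miR-204-3p mimic libraries, against 89.6 and 104 CPM in control mimic libraries. In both genes every miR-204-3p library was above every control library. Psmc1 rose less, by 0.35 ± 0.14 on the log2 scale, with 265 and 212 CPM in miR-204-3p mimic libraries and 191 and 183 CPM in control mimic libraries (edgeR adjusted p = 0.036). The Psmc1 call was lost without control library 1 (0.37, adjusted p = 0.073), without control library 2 (0.31, adjusted p = 0.15) and without miR-204-3p library 1 (0.18, adjusted p = 0.32). Psmc3 had 164 and 167 CPM in miR-204-3p mimic libraries and 124 and 147 CPM in control mimic libraries, with a log2 fold change of 0.29 ± 0.13 that did not pass (edgeR adjusted p = 0.063) and did without control library 2 (0.41, adjusted p = 0.050). Psmc3 exons share 8.25% of their bases with Slc39a13 on the opposite strand.

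**Figure D4:**
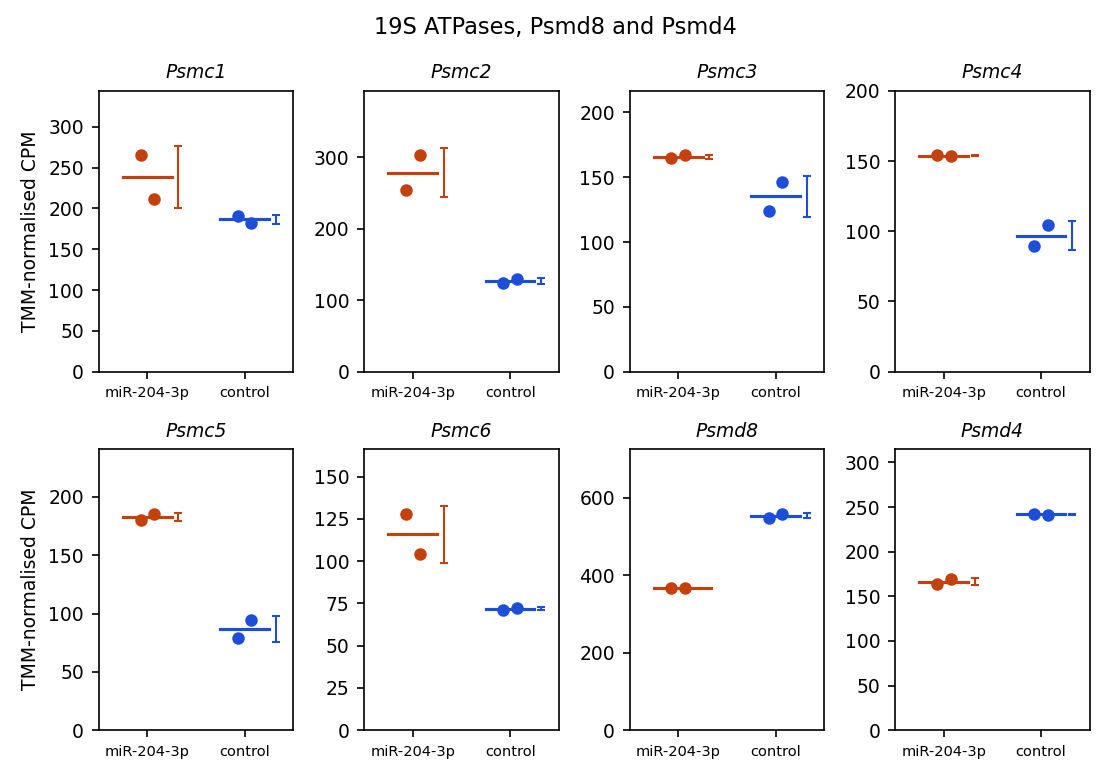
Levels in TMM-scaled CPM (y axes, from 0) of the 6 genes of the 19S ATPase ring and of Psmd8 and Psmd4 in each library. The miR-204-3p mimic is left of the control mimic. Points are libraries, horizontal lines means and error bars 1 SD (n = 2). In each ATPase panel both miR-204-3p points lie above both control points, widest apart for Psmc2 and Psmc5. In the Psmd8 and Psmd4 panels both miR-204-3p points lie below both control points.

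Ratios of summed counts within a library show the difference in make-up between groups without any scaling. Counts of the 6 ATPase genes per count of the 14 constitutive core genes were 0.460 and 0.426 in miR-204-3p mimic libraries, against 0.234 and 0.239 in control mimic libraries. Counts of the 6 ATPase genes per count of the 11 non-ATPase genes of the same 19S particle were 0.617 and 0.581 in miR-204-3p mimic libraries, against 0.341 and 0.364 in control mimic libraries. Non-ATPase counts per core count were 0.745 and 0.734 in miR-204-3p mimic libraries, against 0.686 and 0.657 in control mimic libraries. All 3 ratios were apart between the groups. They depend on the lengths of the genes, and longer genes tended to have higher fold changes in these libraries. The ratios were not corrected for this. They were not tested. The first of the 2 RefSeq promoter windows of Psmc2 is shown because this gene had the largest fold change of the ATPases. Capitals mark an ETS core, CCGGAAG, on the opposite strand and a CCAAT box, at offsets -84 and -28 from the start.
Psmc2, chr5:21785025-21785324, plus strand: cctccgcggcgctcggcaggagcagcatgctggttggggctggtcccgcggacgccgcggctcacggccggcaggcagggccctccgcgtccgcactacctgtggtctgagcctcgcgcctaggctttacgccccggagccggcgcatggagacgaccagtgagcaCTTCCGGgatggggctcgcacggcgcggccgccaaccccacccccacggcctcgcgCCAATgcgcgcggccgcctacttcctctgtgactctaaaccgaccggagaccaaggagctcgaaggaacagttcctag

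The 11 non-ATPase genes of the 19S particle, which complete its base and form its lid, were mixed, with 1 higher, 2 lower and 8 not past. Thus 27.3% of them passed, against 60.8% of all tested genes, and their median log2 fold change was 0.10. This mix depends on the scaling. With library size alone 8 of the 11 were higher and 0 lower, with a median of 0.47. Of all tested genes 46.6% were then higher and 19.1% lower. With gene-length offsets 2 of the 11 were higher and 2 lower. Psmd8, a lid subunit, had 367 and 366 CPM in miR-204-3p mimic libraries, against 549 and 559 CPM in control mimic libraries. The groups were far apart, and Psmd8 fell by 0.60 ± 0.12 on the log2 scale (edgeR adjusted p = 0.00064). Psmd4, the ubiquitin receptor also known as Rpn10, fell by 0.54 ± 0.12 on the log2 scale, with 163 and 169 CPM in miR-204-3p mimic libraries and 242 and 241 CPM in control mimic libraries (edgeR adjusted p = 0.0015). With library size alone both calls were lost, at -0.23 for Psmd8 (adjusted p = 0.098) and -0.18 for Psmd4 (adjusted p = 0.21).

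Psmd11, a lid subunit, had 139 and 143 CPM in miR-204-3p mimic libraries, against 114 and 113 CPM in control mimic libraries. It rose by 0.32 ± 0.12 on the log2 scale (edgeR adjusted p = 0.036), a call lost in 8 of 10 alternatives, among them each fit without 1 library (0.27 to 0.33, adjusted p = 0.056 to 0.15). Psmd2, a large base subunit, had the highest CPM of the class in miR-204-3p mimic libraries, 429 and 483 CPM, against 378 and 371 CPM in control mimic libraries. Its groups were apart and its log2 fold change of 0.29 ± 0.12 did not pass (edgeR adjusted p = 0.059), but did without miR-204-3p library 1 (0.36, adjusted p = 0.023). Psmd14, the deubiquitinating enzyme of the lid, had 105 and 112 CPM in miR-204-3p mimic libraries and 92.5 and 93.6 CPM in control mimic libraries, with a log2 fold change of 0.22 ± 0.12 (edgeR adjusted p = 0.13). Psmd14 passed as higher with gene-length offsets (0.32) and with library size alone (0.59). Psmd1, which lies beside Psmd2 in the base, was almost level, with 108 and 113 CPM in miR-204-3p mimic libraries and 111 and 113 CPM in control mimic libraries. The remaining 5, Psmd3, Psmd6, Psmd7, Psmd12 and Psmd13, had log2 fold changes from -0.11 to 0.26 and did not pass. Of these Psmd6 passed as higher with gene-length offsets (0.36), and all but Psmd13 passed as higher with library size alone.

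Of the 3 chaperones that assemble the ATPase ring, Psmd5 rose and Psmd9 and Psmd10 did not pass. That is 33.3% past the test, against 60.8% of all tested genes. Psmd5 had 96.6 and 122 CPM in miR-204-3p mimic libraries, against 65.9 and 70.6 CPM in control mimic libraries. It rose by 0.68 ± 0.14 on the log2 scale (edgeR adjusted p = 0.00069), and it holds a seed match. Psmd10, also known as gankyrin, had 43.0 and 42.4 CPM in miR-204-3p mimic libraries and 29.7 and 41.6 CPM in control mimic libraries, with a log2 fold change of 0.26 ± 0.17 (edgeR adjusted p = 0.19). Without control library 2 Psmd10 passed as higher (0.51, adjusted p = 0.033). Psmd9 had 41.8 and 39.1 CPM in miR-204-3p mimic libraries and 35.2 and 37.5 CPM in control mimic libraries (edgeR adjusted p = 0.37).

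The 2 subunits of the interferon-inducible PA28 cap moved in opposite directions. Psme1 (ENSMUSG00000022216, mm10, chr14:55578123-55581529, plus strand), which encodes PA28 alpha, had 89.8 and 85.1 CPM in miR-204-3p mimic libraries, against 210.4 and 229 CPM in control mimic libraries. Both miR-204-3p values were well below both control values. Psme1 fell by 1.33 ± 0.13 on the log2 scale, a 2.51-fold difference, the most negative value of any member (edgeR adjusted p = 5.8e-07). Psme2 (ENSMUSG00000079197, mm10, chr14:55587441-55591113, minus strand), which encodes PA28 beta, had 112 and 133 CPM in miR-204-3p mimic libraries, against 60.3 and 98.8 CPM in control mimic libraries. The control libraries differed from each other more than the miR-204-3p libraries did, and Psme2 rose by 0.62 ± 0.19 on the log2 scale (edgeR adjusted p = 0.0094). Without control library 1 the Psme2 call was lost (0.30, adjusted p = 0.15).

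Psme2 is hard to separate from Psme2b, a near copy on chromosome 11. Of the 50-base stretches of Psme2 28.3% also occur in Psme2b, and 68.7% of those of Psme2b occur in Psme2, so both values are uncertain. Psme2b had 81.3 and 78.0 CPM in miR-204-3p mimic libraries, against 65.7 and 55.4 CPM in control mimic libraries, and rose by 0.39 ± 0.13 on the log2 scale (edgeR adjusted p = 0.019). Without control library 2 the Psme2b call was lost (0.27, adjusted p = 0.22). Summed over both copies the level was 193 and 211 CPM in miR-204-3p mimic libraries, against 126 and 154 CPM in control mimic libraries. Counts of Psme2 and Psme2b together per count of Psme1 were 2.15 and 2.48 in miR-204-3p mimic libraries, against 0.599 and 0.674 in control mimic libraries. The ratio was not tested and was apart between groups for the sum and for Psme2 alone, which gave 1.25 and 1.56 in miR-204-3p mimic libraries, against 0.286 and 0.432 in control mimic libraries.

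The promoter of Psme1 is shown because this gene fell most. Capitals mark a match to the core of the interferon-stimulated response element, which is GAAA, any 2 bases and GAAA again, on the opposite strand and just after the start, at offset 9.
Psme1, chr14:55578244-55578543, plus strand: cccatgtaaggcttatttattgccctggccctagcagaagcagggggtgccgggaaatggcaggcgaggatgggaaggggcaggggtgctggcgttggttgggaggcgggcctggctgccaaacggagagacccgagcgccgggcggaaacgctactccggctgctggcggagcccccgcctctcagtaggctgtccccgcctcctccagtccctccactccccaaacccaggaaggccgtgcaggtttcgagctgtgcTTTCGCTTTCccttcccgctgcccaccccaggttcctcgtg

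Psme3, which encodes the nuclear activator PA28 gamma, had 201 and 218 CPM in miR-204-3p mimic libraries, against 132 and 149 CPM in control mimic libraries. The groups were apart, Psme3 rose by 0.58 ± 0.13 on the log2 scale (edgeR adjusted p = 0.0013), and the call held in all 10 alternatives. Psme4, which encodes the activator PA200, had 70.1 and 55.2 CPM in miR-204-3p mimic libraries and 73.4 and 52.2 CPM in control mimic libraries. These groups overlapped, with a difference in means smaller than the spread between libraries (edgeR adjusted p = 0.99). Psmf1, the inhibitor PI31, had 57.8 and 63.5 CPM in miR-204-3p mimic libraries and 55.5 and 60.6 CPM in control mimic libraries, with a log2 fold change of 0.06 ± 0.13 (edgeR adjusted p = 0.70). Of the 6 genes of activators and the inhibitor 3 rose, 1 fell and 2 did not pass. Thus 66.7% passed, against 60.8% of all tested genes.

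**Figure D5:**
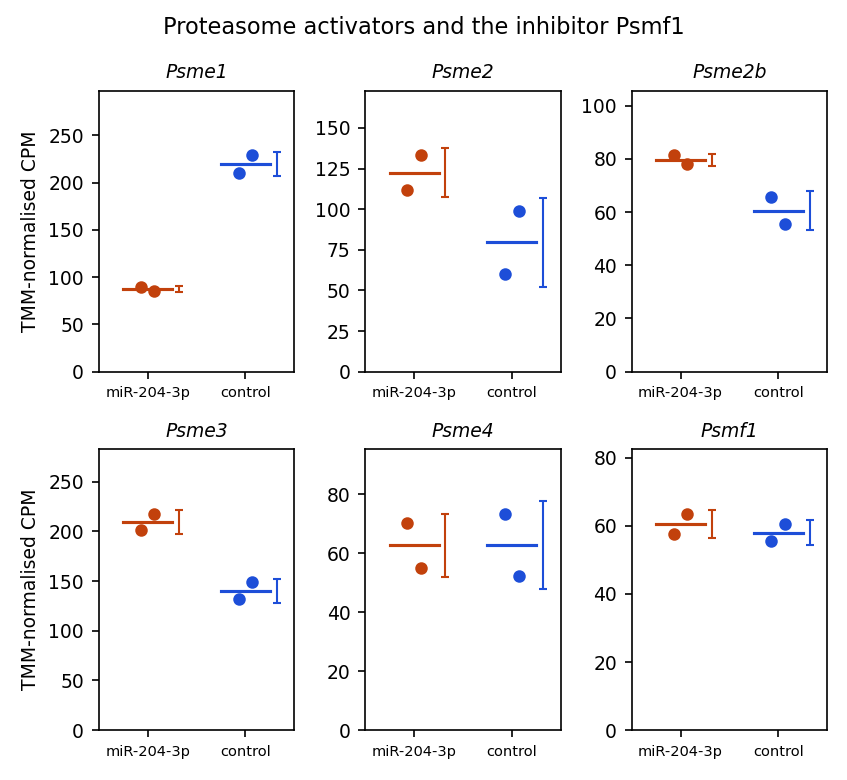
Levels in TMM-scaled CPM (y axes, from 0) of the proteasome activators and the inhibitor Psmf1 in each library, miR-204-3p mimic left of control mimic; points are libraries, horizontal lines means and error bars 1 SD (n = 2). Psme1 is lower and Psme2, Psme2b and Psme3 are higher in both miR-204-3p libraries, while Psme4 and Psmf1 overlap.

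The 4 chaperones that assemble the 20S core form pairs, Psmg1 with Psmg2 and Psmg3 with Psmg4, and 1 of them rose, 1 fell and 2 did not pass. Psmg2 had 55.5 and 63.9 CPM in miR-204-3p mimic libraries, against 24.3 and 24.9 CPM in control mimic libraries. Both miR-204-3p values were more than double both control values, and Psmg2 rose by 1.28 ± 0.15 on the log2 scale, the most positive value of any member (edgeR adjusted p = 4.4e-06). Its partner Psmg1 had 38.0 and 52.9 CPM in miR-204-3p mimic libraries and 36.1 and 40.9 CPM in control mimic libraries, which overlapped (edgeR adjusted p = 0.24). Without miR-204-3p library 1 Psmg1 passed as higher (0.45, adjusted p = 0.020). Psmg4 had 43.5 and 51.0 CPM in miR-204-3p mimic libraries, against 82.0 and 72.0 CPM in control mimic libraries, and fell by 0.70 ± 0.14 on the log2 scale (edgeR adjusted p = 0.00059). With gene-length offsets the Psmg4 value was 0.03 (adjusted p = 0.89), so this direction depends on the length correction. Psmg3 had 14.0 and 18.1 CPM in miR-204-3p mimic libraries and 14.1 and 15.0 CPM in control mimic libraries (edgeR adjusted p = 0.55).

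Levels can be compared between genes only per length, and here the deposited gene length was used. Psmb4 had the highest level, 200.1 CPM per kb in miR-204-3p mimic libraries and 210.1 CPM per kb in control mimic libraries. Psmc5 came next in miR-204-3p mimic libraries, at 131 CPM per kb against 62.3 CPM per kb in control mimic libraries. The order of genes depends on the length used. Psmb3, for example, has a deposited length of 2300 bases and a longest coding transcript of 766 bases. At the low end Psmb11 had 0.139 CPM per kb in miR-204-3p mimic libraries and 0.0881 CPM per kb in control mimic libraries. Subunits that stand in the particle in equal number were not equal in RNA. Among the 6 ATPases the highest level was 3.75 and 4.47 times the lowest in miR-204-3p mimic libraries, and 4.84 and 4.56 times in control mimic libraries. Among the 7 alpha genes Psma1 to Psma7 this ratio was 4.39 and 4.22 in miR-204-3p mimic libraries, and 4.76 and 5.58 in control mimic libraries. Such ratios depend on the length used, and with that of the longest coding transcript those of the ATPases were 2.91 and 3.64 in miR-204-3p mimic libraries and 3.76 and 3.54 in control mimic libraries.

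Promoter windows were found in RefSeq for 42 of the 50 members, among 16497 protein-coding genes with one, and both strands were searched. These 16497, called all genes here, include genes that were not tested, while every member passed the low-count filter. Shares among tested genes alone were not taken. CCGGAAG occurred in 15 of 42 members (35.7%), against 13.3% of all genes. Among these Psmc1, Psmc2, Psmc6, Psmd11 and Psme3 rose and Psmd4 fell. The others, Psma6, Psmc3ip, Psmd2, Psmd6, Psmd12, Psmd13, Psme4, Psmg1 and Psmg3, did not pass. The core of the interferon-stimulated response element occurred in 5 of 42 members (11.9%), against 4.04% of all genes. These were Psmb3, Psmd4, Psme1 and Psmg4, which fell, and Psmd9, which did not pass. With library size alone Psmb3 and Psmd4 were not called, and with gene-length offsets Psmg4 was at 0.03. Of all tested genes 31.1% were higher and 29.7% lower. Calls of all tested genes that hold a motif were not counted, so a link between motif and direction was not tested. TTCNNNGAA occurred in Psmb8, Psmd2 and Psmg1 (7.14%, against 9.03% of all genes), and CCAAT in 35.7% of members against 42.1% of all genes. TGACNNNGC, the core of the antioxidant response element that Nrf1 and Nrf2 bind, occurred in 14.3% of members (Psmb5, Psmb6, Psmc6, Psmd9, Psmd12 and Psme4) against 15.0% of all genes. Some matches overlap, and these counts describe letters in the windows and nothing about binding.

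Genes that work with the proteasome were read from 4 lists of non-members. Of all tested genes 60.8% passed, 31.1% higher and 29.7% lower, and no list was tested as a set. Among 11 other proteasome-linked genes 5 rose and 3 fell (72.7% past the test, median log2 fold change 0.15). Zfand2a, a stress-induced partner of the 19S particle, rose by 1.36 ± 0.13, Akirin2, which carries proteasomes into the nucleus, by 0.89 ± 0.14, and Ube3c, a proteasome-bound ubiquitin ligase, by 0.73 ± 0.12 on the log2 scale. Sem1, a small lid subunit outside the name rule, fell by 0.74 ± 0.13, and Uchl5, a deubiquitinating enzyme of the 19S particle, fell by 0.71 ± 0.19. With library size alone Uchl5 was not called (-0.35, adjusted p = 0.13). Pomp, the maturation factor of the core, fell by 0.32 ± 0.13, and its value was 0.04 with library size alone. The Pomp call was also lost without control library 1 (-0.34, adjusted p = 0.091), control library 2 (-0.32, adjusted p = 0.11) or miR-204-3p library 1 (-0.22, adjusted p = 0.23). Among 15 genes of ubiquitin, its activation and the p97 segregase 5 rose and 2 fell (46.7% past the test, median 0.09). Nploc4, a p97 cofactor, rose by 1.35 ± 0.13, and the ubiquitin gene Ubb fell by 0.66 ± 0.18, a call lost with library size alone (-0.29, adjusted p = 0.17).

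Among 13 genes around Nrf1 and Nrf2, transcription factors of proteasome and antioxidant genes, 9 rose and 1 fell. Thus 76.9% passed, against 60.8% of all tested genes, and the median was 0.63, against 0.04 for all tested genes. Nfe2l1, the gene of Nrf1, which raises proteasome genes when the protease is impaired, had 666 and 585 CPM in miR-204-3p mimic libraries, against 265 and 281 CPM in control mimic libraries. It rose by 1.20 ± 0.13 on the log2 scale (edgeR adjusted p = 1.9e-06), beside the Nrf2 target genes Gclm (1.67 ± 0.14) and Srxn1 (1.47 ± 0.13). Nfe2l2 itself, the gene of Nrf2, did not pass, with 118 and 126 CPM in miR-204-3p mimic libraries and 127 and 131 CPM in control mimic libraries. Keap1, the inhibitor of Nrf2, fell by 0.35 ± 0.12, a value that was 0.02 with library size alone and -0.31 without control library 1 (adjusted p = 0.13).

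Among 16 interferon regulators and genes of MHC class I loading 10 rose and 3 fell (median 1.05). Thus 81.25% passed, against 60.8% of all tested genes. Nlrc5, the transactivator of MHC class I genes, had 91.6 and 96.8 CPM in miR-204-3p mimic libraries, against 24.8 and 24.2 CPM in control mimic libraries. It rose by 1.94 ± 0.14 on the log2 scale (edgeR adjusted p = 3.0e-08), beside Tapbpl (1.90 ± 0.15) and Irf9 (1.54 ± 0.13). Irf8, a regulator of myeloid and immunoproteasome genes, had 38.3 and 33.1 CPM in miR-204-3p mimic libraries, against 173 and 165 CPM in control mimic libraries, and fell by 2.24 ± 0.13 on the log2 scale (edgeR adjusted p = 5.5e-09). Irf1, a known inducer of Psmb9, had 49.3 and 52.4 CPM in miR-204-3p mimic libraries and 61.4 and 63.8 CPM in control mimic libraries, with a log2 fold change of -0.30 ± 0.13 that did not pass (edgeR adjusted p = 0.062) and was 0.06 with library size alone. The chaperones Pdia3 and Calr fell by 0.44 ± 0.14 and 0.46 ± 0.16. Both of these calls were lost without control library 1, at -0.22 (adjusted p = 0.31) for Pdia3 and -0.17 (adjusted p = 0.45) for Calr. Both were also lost with library size alone, at -0.07 for Pdia3 (adjusted p = 0.67) and -0.10 for Calr (adjusted p = 0.61), and that of Calr with gene-length offsets (-0.38, adjusted p = 0.057).

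Markers of cell types differed between the groups beside these results. The summed level of 10 macrophage markers was 3443 and 3459 CPM in miR-204-3p mimic libraries, against 17265 and 19148 CPM in control mimic libraries. Csf1r, Adgre1, Lyz2 and Cd68 were detected in every library. Of the 9 tested, 8 fell and 1 rose, and Mrc1 and Mertk were under 4 CPM in every library. B cell markers summed to 3.38 and 3.71 CPM in miR-204-3p mimic libraries, against 251 and 227 CPM in control mimic libraries, with all 4 tested lower and Ms4a1 at 0 in every library. Neutrophil markers summed to 15.4 and 11.2 CPM in miR-204-3p mimic libraries and 174 and 241 CPM in control mimic libraries (3 of 4 tested lower, Ly6g at 0). Dendritic cell markers summed to 4.48 and 4.75 CPM in miR-204-3p mimic libraries and 46.9 and 38.1 CPM in control mimic libraries (2 of 4 tested lower). T and NK cell markers summed to 28.3 and 27.2 CPM in miR-204-3p mimic libraries and 5.06 and 4.41 CPM in control mimic libraries, with Cd3e, Cd8a, Ncr1 and Nkg7 at 0 and 1 tested, which rose. Fibroblast, erythroid and mast cell markers summed to at most 0.437 CPM in miR-204-3p mimic libraries and 0.139 CPM in control mimic libraries. The part of these differences in the proteasome results was not tested.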

How the data were processed

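Libraries of total RNA were prepared with a NEBNext Ultra kit (labels' protocols). The deposited values are raw counts for each gene, per the file headers, with a gene length in bases whose definition is not stated. The submitters' processing notes name HISAT2 and mm10; version, counting program and strand setting are not given in the sources used here. No sample column was left unused (0) and 0 rows lacked a gene. The members and gene lists were chosen with earlier results of these data known.

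Counts were tested in R 4.3.3 with edgeR 4.0.16 (glmQLFit and glmQLFTest, two-sided, group only, TMM factors, filterByExpr by group), and p-values were adjusted by Benjamini-Hochberg over every tested gene, with a threshold of 0.05. TMM factors were 1.14 and 1.13 in miR-204-3p mimic libraries and 0.878 and 0.886 in control mimic libraries. Standard errors were derived from the F statistic. The fit was tested on simulated data with 200 changed genes and a common dispersion, with the outcome not reported here. In the real data 60.8% of tested genes passed, so that simulation cannot test the TMM scaling. A count of 0 allows up to 3 counts, 0.178 to 0.189 CPM; such floors and the binomial intervals cover only counting error, because PCR copies of a read are not separate molecules. Log2 CPM correlated across genes at Pearson r = 0.986 between miR-204-3p mimic libraries, 0.982 between control mimic libraries and 0.852 to 0.865 between groups. Alternatives were DESeq2 1.42.0, its size factors in edgeR, library size alone, no low-count filter, offsets for gene length, the replicate number as a block, and leaving out each library. Shares of induced subunits with the longest coding transcript length were an alternative chosen after seeing the data.

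Any member could be named. Values per library were given for the catalytic pairs, the activators and the member at each end of every class, with further members chosen after their values were seen. From each list of other genes up to 4 per direction with the lowest p were eligible, while Irf1 and Nfe2l2 were chosen after their values were seen. Some genes of these lists are not reported here. Of the gene identifiers deposited, 54409 were in GENCODE vM21, and 48 of the 50 members had the same coordinates there. Promoter windows and the microRNA came from RefSeq on GRCm38.p6.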

Additional observations from a re-analysis of the deposited data

How the results depend on the processing

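With gene-length offsets 17 members were higher, against 11 with TMM alone, and 2 core genes were higher, against 0, with a member median log2 fold change of 0.20. With library size alone 30 members were higher and 4 lower, 6 core genes higher and 2 lower (against 0 and 5), and 21 genes of the 19S particle and of assembly were called, against 11. That scaling gave 2513 lower genes in all, against 3921, and a member median of 0.45. By construction it moves the median of all genes by 0.36. Among values past the test before or after the change of scaling, the directions of Psma2 (0.30), Psmb4 (0.29), Psmd1 (0.35), Pomp (0.043) and Keap1 (0.016) turned with library size alone, and that of Psmg4 (0.025) with gene-length offsets; the cause of the last was not tested. Counting values that passed in neither fit, 12 members turned with library size alone and 8 with gene-length offsets, Psma5, Psma6, Psmb2, Psmb4 and Psmb5 with both.

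Leaving out 1 library at a time gave 8 to 11 members higher, 8 to 11 lower, 4 to 7 core genes lower, 9 to 11 genes of the 19S particle and of assembly called, 3547 to 3797 genes higher in all and 3601 to 3886 lower. The member median was 0.025 to 0.12. A lone library was then assumed to vary like the other group. DESeq2 called 10 members higher and 9 lower. With the longest coding transcript as length, the mean share of Psmb8 was 32.1% in miR-204-3p mimic libraries and 38.3% in control mimic libraries, of Psmb9 17.2% and 14.0%, and of Psmb10 49.2% and 44.0%, so the order of the groups stayed while the levels moved.

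The replicate numbers are not stated to pair the libraries, and deviations of same-numbered libraries correlated at 0.019. With the replicate number as a block 12 members were higher and 9 lower, Psmc3 being the addition (0.30, adjusted p = 0.045). The depth does not resolve Psmb11, and 2 libraries per group limit every p-value.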
